A study of Bos indicus and Bos indicus x Bos taurus and Bos taurus with 6 samples.

Results

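The chaperonins are protein-folding chambers, and their genes were followed here in the whole blood of 3 cattle breeds. The 10 genes were taken by symbol from the deposited count matrix of 21698 genes: HSPD1 and HSPE1 of the mitochondrion, and TCP1, CCT2, CCT3, CCT4, CCT5, CCT6A, CCT7 and CCT8 of the cytosolic ring. All 10 passed the filter on low counts, which left 13455 genes for testing. The lowest count of any of them in any library was 1074.

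Blood was drawn from the jugular vein of cows at peak heat load and its RNA was sequenced. Kedah-Kelantan is an indigenous tropical breed (Bos indicus) that the labels describe as heat-tolerant, Brangus, a composite, is placed between, and the temperate Holstein Friesian (Bos taurus) is described as heat-vulnerable. Each breed had 2 libraries labelled as biological replicates (n = 2 throughout), while the design text speaks of 4 cows per breed. All cows were healthy adults, neither pregnant nor lactating, aged 4.5 ± 1.2 years and weighing 450 ± 15 kg on average. Every sample carries the same temperature-humidity index of 44.68, for which the labels give no formula, and there was no unheated group. The comparisons are therefore between breeds and not between heat loads. In whole blood, a lower level of a transcript cannot be told apart from fewer cells of the types that carry it.

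HSP60, the product of HSPD1, forms a barrel in the mitochondrial matrix in which imported proteins fold, and HSP10, the product of HSPE1, is the lid that closes it. CCT, also called TRiC, is a pair of stacked rings built from different but related subunits, and it folds actin, tubulin and other cytosolic proteins with ATP. HSPD1 and HSPE1 are classical heat shock genes, transcribed from a shared region between them, and are also induced by mitochondrial stress, whereas the CCT genes are known for their activity in growing cells.

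The libraries held 25275377 to 28668857 counts. The Holstein Friesian libraries stood far apart from each other. Among 5268 tested genes with a mean count of 1000 or more, the median absolute log2 difference between replicates reached 0.12 in Kedah-Kelantan, was 0.15 in Brangus and 0.47 in Holstein Friesian. Summed over 8 of 8 B and plasma cell markers, the level was 1665 and 1812 CPM (counts scaled to a library of 1000000) in Kedah-Kelantan, 2771 and 2410 CPM in Brangus, and 2702 and 165 CPM in Holstein Friesian. Monocyte markers (7 of 7) had the opposite order within Holstein Friesian, with 1271 and 1456 CPM in Kedah-Kelantan, 1017 and 943 CPM in Brangus, and 416 and 6832 CPM in Holstein Friesian. Neutrophil markers (7 of 8) summed to 2275 and 2434 CPM in Kedah-Kelantan, 2420 and 3903 CPM in Brangus, and 753 and 7128 CPM in Holstein Friesian. T cell markers (8 of 8) lay between 1747 and 1932 CPM in Kedah-Kelantan and Brangus, and at 2280 and 1841 CPM in Holstein Friesian. The part of these cell differences in the chaperonin values was not tested. Fold changes of the chaperonin genes against Holstein Friesian are given below with and without each of its libraries.

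HSPD1 and HSPE1 lie head to head on chromosome 2 of the deposited table. HSPD1 spans 86035475 to 86045870 on the minus strand and HSPE1 spans 86046023 to 86048063 on the plus strand, with 152 bases between them. HSPD1 was counted 4055 and 3917 times in the Kedah-Kelantan libraries, 3822 and 4232 times in Brangus, and 4613 and 3277 times in Holstein Friesian. Scaled to library size, this was 131 and 127 CPM in Kedah-Kelantan, 164 and 182 CPM in Brangus, and 155 and 125 CPM in Holstein Friesian. Both Brangus libraries lay above the other 4. The Holstein Friesian libraries fell on either side of the Kedah-Kelantan pair.

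HSPE1, the gene of the HSP10 lid, had the widest spread among breeds. It was counted 1242 and 1481 times in the Kedah-Kelantan libraries, 1899 and 2107 times in Brangus, and 1806 and 1074 times in Holstein Friesian. Scaled, it was at 40.0 and 48.1 CPM in Kedah-Kelantan, 81.3 and 90.5 CPM in Brangus, and 60.6 and 40.8 CPM in Holstein Friesian. Brangus was again above every other library, and the highest library exceeded the lowest by a factor of 2.27, against 1.46 for HSPD1.

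Among the ring genes, TCP1, CCT2 and CCT3 were closely matched within Kedah-Kelantan and within Brangus. TCP1 (chromosome 9, 96044638 to 96055563), the alpha subunit and the first of the family to be named, was 114 and 112 CPM in Kedah-Kelantan, 142 and 135 CPM in Brangus, and 122 and 111 CPM in Holstein Friesian. CCT2 (chromosome 5, 43869186 to 43884991), the beta subunit, was 154 and 159 CPM in Kedah-Kelantan, 187 and 183 CPM in Brangus, and 177 and 116 CPM in Holstein Friesian. The gamma subunit CCT3 (chromosome 3, 14486607 to 14501165) stood at 164 and 163 CPM in Kedah-Kelantan, 230 and 230 CPM in Brangus, and 185 and 148 CPM in Holstein Friesian. For all 3 genes the Brangus pair was the highest and did not overlap with either of the other breeds.

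CCT4 and CCT5 are the delta and epsilon subunits, which in yeast belong with CCT2 to the side of the ring that hydrolyses ATP most strongly. CCT4 (chromosome 11, 60465697 to 60478325) reached 149 and 160 CPM in Kedah-Kelantan, 236 and 196 CPM in Brangus, and 195 and 132 CPM in Holstein Friesian. CCT5 (chromosome 20, 62979746 to 62993754) was 111 and 112 CPM in Kedah-Kelantan, 153 and 143 CPM in Brangus, and 144 and 107 CPM in Holstein Friesian. CCT4 in Brangus replicate 2 was only just above Holstein Friesian replicate 1, and for CCT5 these libraries overlapped.

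The remaining subunits are CCT6A, CCT7 and CCT8, the zeta, eta and theta positions of the ring. CCT6A (chromosome 25, 27727918 to 27738084) was 121 and 125 CPM in Kedah-Kelantan, 158 and 157 CPM in Brangus, and 158 and 87.2 CPM in Holstein Friesian. The eta subunit CCT7 (chromosome 11, 11197289 to 11214582) was 132 and 137 CPM in Kedah-Kelantan, 208 and 185 CPM in Brangus, and 177 and 111 CPM in Holstein Friesian. CCT8 (chromosome 1, 7114205 to 7127950), whose subunit in worms is linked to assembly of the ring, was 147 and 131 CPM in Kedah-Kelantan, 157 and 167 CPM in Brangus, and 149 and 124 CPM in Holstein Friesian. CCT8 differed least among breeds by its means, and CCT6A had the widest gap within Holstein Friesian of the 10 genes.

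**Figure D1:**
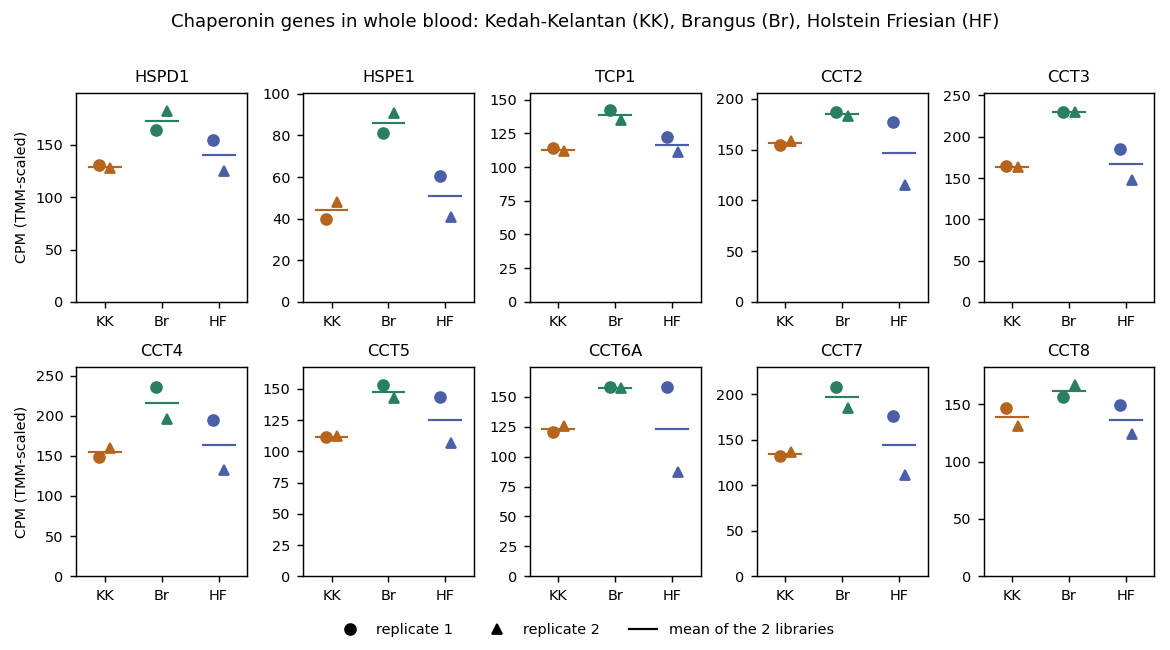
CPM of each of the 10 chaperonin genes (vertical axes, starting at 0) in the 2 libraries of Kedah-Kelantan, Brangus and Holstein Friesian. Circles are replicate 1, triangles replicate 2 and lines the mean of both. The Brangus points are above both Kedah-Kelantan points in every panel, and Holstein Friesian replicate 2 is below replicate 1 in every panel.

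Replicates of the ring genes were close in Kedah-Kelantan and Brangus and far apart in Holstein Friesian. The median absolute log2 difference between replicates over the 8 ring genes reached 0.04 in Kedah-Kelantan, was 0.08 in Brangus and 0.49 in Holstein Friesian. Holstein Friesian replicate 2 was lower than replicate 1 for all 10 chaperonin genes, by a log2 difference that ran from -0.14 for TCP1 to -0.86 for CCT6A. Over the 5268 well-counted genes the median signed difference between these libraries was near 0, at -0.0017. Summed over the ring, the level was 1092 and 1099 CPM in Kedah-Kelantan, 1470 and 1396 CPM in Brangus, and 1308 and 935 CPM in Holstein Friesian. As a share of all counts, without any scaling factor, the ring took 0.122% and 0.120% of Kedah-Kelantan, 0.136% and 0.128% of Brangus, and 0.136% and 0.0875% of Holstein Friesian libraries.

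Levels of different genes can be compared only per length, and for this the deposited FPKM values (read counts scaled to gene length and library total) were used. HSPE1 had the highest mean, 124 ± 36.4 FPKM (SD over 6 libraries), and HSPD1 the lowest, 52.1 ± 6.3 FPKM. Between them lay CCT3 at 95.8 FPKM, CCT4 at 89.9, CCT7 at 88.7, CCT2 at 84.5, CCT8 at 73.8, TCP1 at 66.2, CCT5 at 61.2 and CCT6A at 53.1 FPKM. HSPE1 was above CCT3 in 5 of 6 libraries, the exception being Kedah-Kelantan replicate 1. CCT8 was above TCP1, and CCT5 above CCT6A, in 6 of 6 libraries. Of the other neighbours in this order, CCT2 and CCT8 as well as TCP1 and CCT5 kept it in 5 of 6 libraries. CCT3 and CCT4, CCT4 and CCT7, CCT7 and CCT2, and CCT6A and HSPD1 kept it in 4 of 6, with mean differences smaller than the SD of the differences. By mean FPKM all 10 genes ranked between percentiles 90.0 and 96.2 of the tested genes.

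**Figure D2:**
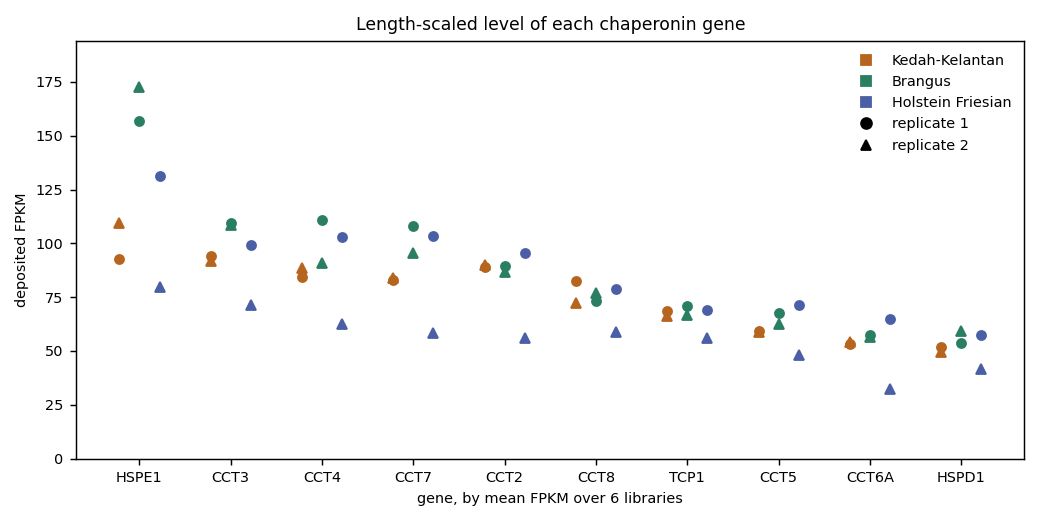
Deposited FPKM (vertical axis) of the 10 genes, ordered from left to right by their mean over 6 libraries. Colours are breeds, circles replicate 1 and triangles replicate 2. HSPE1 has both the highest mean, 124 FPKM, and the widest spread, while CCT6A and HSPD1 are lowest at 53.1 and 52.1 FPKM.

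The ring subunits, which occur in equal numbers in the assembled complex, did not have equal FPKM. Within a library the highest ring gene exceeded the lowest by a factor of 1.77 and 1.70 in the Kedah-Kelantan libraries, 1.92 and 1.91 in the Brangus libraries, and 1.59 and 2.21 in the Holstein Friesian libraries. The 2.21 came from Holstein Friesian replicate 2, in which CCT6A was 32.2 FPKM and CCT3 71.2 FPKM.

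The ratio of HSPE1 to HSPD1 was higher in both Brangus libraries than in the other 4. The ratio of their FPKM was 1.80 and 2.22 in the Kedah-Kelantan libraries, 2.92 in both Brangus libraries, and 2.30 and 1.92 in the Holstein Friesian libraries. On the log2 scale, the difference in this ratio was -0.55 for Kedah-Kelantan against Brangus and 0.47 for Brangus against Holstein Friesian, with a two-sided exact permutation p of 0.333 each, which is the smallest that 2 libraries against 2 can give. For Kedah-Kelantan against Holstein Friesian it was -0.07 (exact permutation p = 0.667). Without Holstein Friesian replicate 1 the difference was 0.60 for Brangus and 0.05 for Kedah-Kelantan against the library left, and without replicate 2 it was 0.35 and -0.20. No correction for the trend with gene length described further on was made to this ratio. With that trend removed, Kedah-Kelantan against Brangus had -0.20 for HSPE1 and -0.42 for HSPD1 in the fit of these breeds alone. Brangus against Holstein Friesian had 0.24 for HSPE1 and 0.30 for HSPD1 with all 6 libraries. HSPE1 then differed by less than HSPD1, so the higher ratio in Brangus was not kept.

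**Figure D3:**
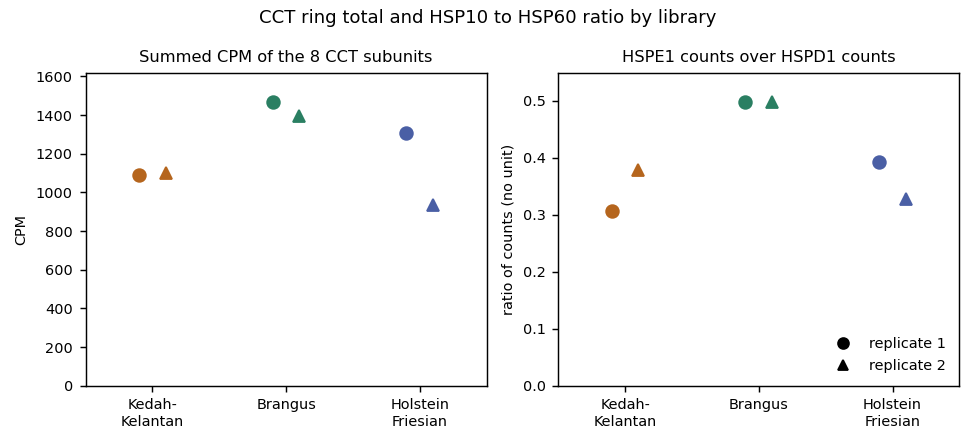
Left, summed CPM of the 8 CCT genes by library. Right, counts of HSPE1 divided by counts of HSPD1. Both axes start at 0, circles are replicate 1 and triangles replicate 2. The Brangus libraries are highest in both panels, at 1470 and 1396 CPM and at ratios of 0.497 and 0.498.

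The heat-tolerant breed was set against the heat-vulnerable one first. In Kedah-Kelantan against Holstein Friesian, no chaperonin gene passed edgeR's quasi-likelihood test at an adjusted p under 0.05 (0 of 10), no gene had an unadjusted p under 0.05, and DESeq2 also called 0. Over all genes edgeR called 0.00743% and DESeq2 0.966%. Of the ring genes, 3 were higher and 5 lower in Kedah-Kelantan, with a median log2 fold change of -0.04, where all tested genes had -0.03. The ring values ran from -0.17 for CCT5 to 0.09 for CCT2. HSPD1 averaged 129 ± 2.26 CPM in Kedah-Kelantan and 140 ± 21.4 CPM in Holstein Friesian (SD, n = 2 each), a log2 fold change of -0.12 with a 95% interval of -0.57 to 0.34. HSPE1 averaged 44.1 ± 5.77 CPM in Kedah-Kelantan and 50.7 ± 14.0 CPM in Holstein Friesian, a log2 fold change of -0.20 (-0.82 to 0.41). All 10 genes overlapped between these breeds, while 18.1% of tested genes were higher and 12.6% lower in Kedah-Kelantan without overlap.

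The near-equal means of these breeds lay between opposite differences to the single Holstein Friesian libraries. Without Holstein Friesian replicate 1 the ring median was 0.20 and all 8 ring genes were higher in Kedah-Kelantan. CCT6A was then called higher (0.50 on the log2 scale, edgeR adjusted p = 0.0366; over its 16 alternatives 0.0366 to 1), where 6.8% of genes were called higher. Without replicate 2 the ring median was -0.30, all 8 ring genes were lower in Kedah-Kelantan and none was called, where 5.35% of genes were called lower. With 1 library left, that breed is assumed to vary like the others.

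In Brangus against Holstein Friesian, all 10 chaperonin genes had higher means in Brangus, and none passed. The ring median was 0.35 on the log2 scale, against -0.03 for all tested genes. edgeR called 0 of 10 members and 0.00743% of all genes, and 2 members had an unadjusted p under 0.05. DESeq2 called 0 members and 2.28% of all genes. HSPE1 averaged 85.9 ± 6.51 CPM in Brangus and 50.7 ± 14.0 CPM in Holstein Friesian, which is 0.76 on the log2 scale (SE 0.25, 95% interval 0.14 to 1.379, edgeR adjusted p = 0.646). CCT3 averaged 230 ± 0.42 CPM in Brangus and 167 ± 26.7 CPM in Holstein Friesian (0.47, SE 0.18, 95% interval 0.02 to 0.92, edgeR adjusted p = 0.649). The other 8 genes had log2 fold changes of 0.24 to 0.45, all with intervals that included 0. For 8 of 10 genes both Brangus libraries lay above both Holstein Friesian libraries, the exceptions being CCT5 and CCT6A, while 18.4% of tested genes did so.

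This difference too depended on the Holstein Friesian library. Without replicate 1, 8 of 10 genes were called higher in Brangus, all but TCP1 and CCT8, where 14.5% of genes were called higher. The ring median was then 0.65, and CCT6A, the zeta subunit, had a log2 fold change of 0.85 (edgeR adjusted p = 0.00253; over its 16 alternatives 0.00253 to 0.968). HSPE1 had 1.07 (adjusted p = 0.00334) and CCT3 0.63 (adjusted p = 0.00759). Without replicate 2, 0 of 10 genes were called, where 4.36% were called higher. The ring median was then 0.09, CCT6A had -0.05, HSPE1 0.46 (edgeR adjusted p = 0.18) and CCT3 0.27 (adjusted p = 0.281).

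In Kedah-Kelantan against Brangus, every chaperonin gene was lower in Kedah-Kelantan by its mean, and for 10 of 10 both Kedah-Kelantan libraries lay below both Brangus libraries. Such a separation was found for 30.7% of tested genes. With all 6 libraries in the fit, edgeR called 0 of 10, with 2 at an unadjusted p under 0.05, and 0% of all genes, of which 1564 had an unadjusted p under 0.05. DESeq2 called HSPE1 alone, where it called 2.74% of genes lower. The ring median was -0.38, against 0.02 for all tested genes. HSPE1 averaged 44.1 ± 5.77 CPM in Kedah-Kelantan and 85.9 ± 6.51 CPM in Brangus, which is -0.96 on the log2 scale (SE 0.25, 95% interval -1.58 to -0.34, edgeR adjusted p = 0.353, DESeq2 adjusted p = 0.0368). HSPD1 averaged 129 ± 2.26 CPM in Kedah-Kelantan and 173 ± 12.8 CPM in Brangus (-0.42, SE 0.18, 95% interval -0.88 to 0.03, edgeR adjusted p = 0.45). Among ring genes CCT7 had the lowest value, -0.55 (SE 0.26), followed by CCT3 and CCT4 at -0.49 each, and CCT8 had the smallest difference, -0.22 (SE 0.18).

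**Figure D4:**
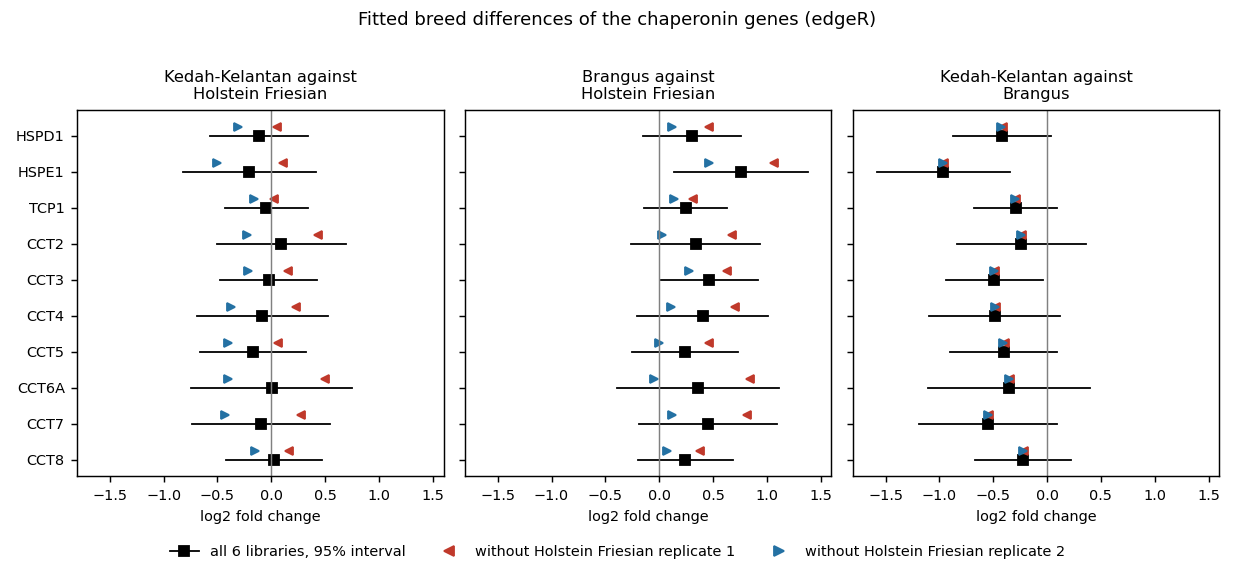
Log2 fold change (horizontal axes, first breed over second) of each gene in the 3 comparisons. Squares with lines are the estimates and 95% intervals from all 6 libraries, and triangles the estimates without Holstein Friesian replicate 1 or 2. In the comparisons with Holstein Friesian the triangles lie on either side of the squares. For CCT6A in Kedah-Kelantan against Holstein Friesian they run from -0.40 to 0.50. In Kedah-Kelantan against Brangus they nearly coincide, as they must when no library of these breeds is left out.

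The calls in Kedah-Kelantan against Brangus turned on whether the Holstein Friesian libraries shared in the estimate of spread. The common biological coefficient of variation was 0.431 over all 6 libraries and 0.186 over the Kedah-Kelantan and Brangus libraries alone. In the fit of these 4 libraries, 6 of 10 chaperonin genes were called lower in Kedah-Kelantan, where 10.2% of genes were called lower. Of the mitochondrial genes, HSPE1 stood at -0.96 on the log2 scale (SE 0.14, edgeR adjusted p = 0.00464) and HSPD1 -0.42 (SE 0.11, adjusted p = 0.0371). The called ring genes were CCT7 at -0.54 (SE 0.11, adjusted p = 0.0152), CCT3 at -0.48 (SE 0.10, adjusted p = 0.0167), CCT4 at -0.48 (SE 0.12, adjusted p = 0.0326) and CCT5 at -0.40 (SE 0.10, adjusted p = 0.0366). Over all 17 alternatives the adjusted p of each of these 6 genes reached 1, in the fit without Kedah-Kelantan replicate 1. CCT6A at -0.35 (adjusted p = 0.0501), TCP1 at -0.29 (0.0933), CCT2 at -0.24 (0.142) and CCT8 at -0.21 (0.228) did not pass. The same 6 genes were called when only replicate 1 of Holstein Friesian was left out, where 9.09% of genes were called lower, and when only replicate 2 was, where 9.62% were. These fits are no separate check. A single Holstein Friesian library has no replicate, so the spread again came from the Kedah-Kelantan and Brangus libraries.

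Differences between Kedah-Kelantan and Brangus followed gene length across all genes, and HSPE1 is a short gene. By the length behind the FPKM, HSPE1 had 479 bases, the ring genes 1777 to 2534 and HSPD1 2810. Across 983 tested genes under 1000 bases the median log2 fold change was -0.53 in Kedah-Kelantan against Brangus, with -0.21 at 1000 to 2000 bases, -0.02 at 2000 to 3000 and 0.14 above 3000. With this trend removed, an alternative chosen after seeing the data, the fit of these 4 libraries gave HSPE1 a log2 fold change of -0.20 (edgeR adjusted p = 0.204; over its 17 alternatives 0.0037 to 1) and HSPD1 -0.42 (adjusted p = 0.0315; 0.0315 to 1). CCT3 (-0.38), CCT6A (-0.33) and CCT7 (-0.40) were also called lower, so that 4 of 10 genes passed where 9.33% of genes were called lower. CCT4 (-0.38, edgeR adjusted p = 0.0583) and CCT5 (-0.32, adjusted p = 0.0556) did not pass. In Brangus against Holstein Friesian, fitted on all 6 libraries with the trend removed, HSPE1 had 0.24 in place of 0.76. Without Holstein Friesian replicate 1 it then had 0.28, and without replicate 2 it had 0.20.

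**Figure D5:**
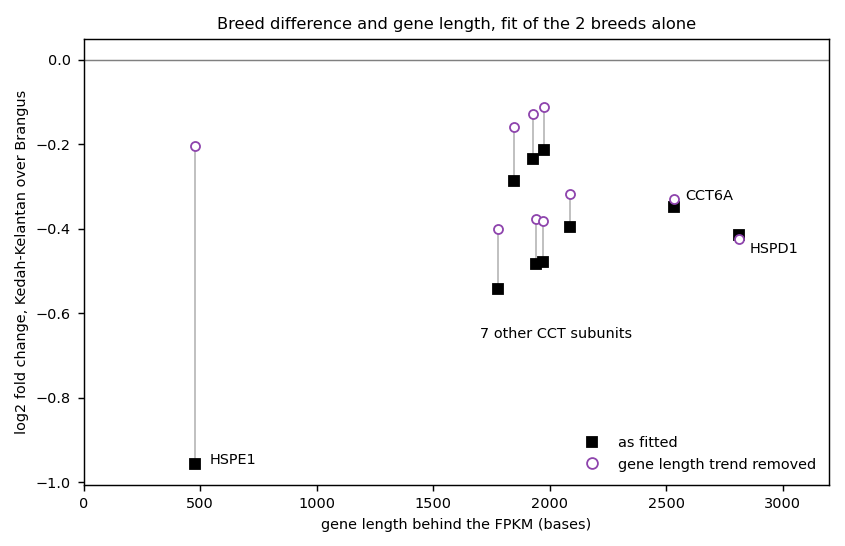
Log2 fold change of the 10 genes in Kedah-Kelantan over Brangus (vertical axis) by gene length in bases (horizontal axis), fitted on the libraries of these breeds alone. Filled squares are the values as fitted and open circles those with the gene length trend removed, joined by a line for each gene. HSPE1, at 479 bases, moves from -0.96 to -0.20, and HSPD1, at 2810 bases, stays at -0.42.

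Library scaling moved these values together with those of all genes. With total counts only, the ring median in Kedah-Kelantan against Brangus was -0.12 and CCT2 and CCT8 turned to 0.02 and 0.04, but the median of all genes was then 0.29. Relative to the median of all genes, the ring was at -0.40 under both scalings, since a scaling factor shifts all genes alike. With limma on log2(FPKM + 1) it was at -0.30. Blood cell markers also differed between these breeds. Platelet markers (7 of 7) summed to 222 and 259 CPM in Kedah-Kelantan and 1005 and 1043 CPM in Brangus. Erythroid markers (8 of 8) summed to 149 and 185 CPM in Kedah-Kelantan and 450 and 643 CPM in Brangus. Among these, HBA1 was at 0 in every library and HBB made up nearly all of the sum. HBB had 144 and 181 CPM in Kedah-Kelantan and 438 and 634.5 CPM in Brangus. Markers of NK and cytotoxic cells (7 of 7) summed to 592 and 685 CPM in Kedah-Kelantan and 229 and 289 CPM in Brangus. Eosinophil and basophil markers (6 of 8) summed to 261 and 273 CPM in Kedah-Kelantan and 46.5 and 42.4 CPM in Brangus. Of the 5 tested, 3 had higher and 2 lower values in Kedah-Kelantan. The part of these cell markers in the chaperonin values was not tested.

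When the 3 breeds were tested together for any difference, edgeR called 0 of 10 chaperonin genes and 0% of all genes. DESeq2 called 0 of the 10 and 4.65% of all genes. HSPE1 had the smallest p, 0.019 (edgeR adjusted p = 0.566), and was the 1 member with an unadjusted p under 0.05.

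Prefoldin hands unfolded actin and tubulin to CCT, and its genes were followed in a list that also holds prefoldin-like genes. Of the genes in this list, 9 of 9 were lower in Kedah-Kelantan than in Brangus, with a median of -1.002. With all 6 libraries edgeR called 0 of them, with 6 at an unadjusted p under 0.05. DESeq2 called PFDN4, PFDN5 and VBP1 lower, where it called 2.74% of all genes lower. With the 4 libraries of these breeds edgeR called PFDN1, PFDN2, PFDN4, PFDN5, UXT and VBP1 lower, 6 of 9 where 10.2% of all genes were called lower. PFDN5, a prefoldin subunit, had 111 and 114 CPM in Kedah-Kelantan, 250 and 271 CPM in Brangus, and 202 and 105 CPM in Holstein Friesian, with a log2 fold change of -1.21 (SE 0.11) for Kedah-Kelantan over Brangus in that fit. PFDN4 had -1.19 and VBP1 -1.11. These are short genes, and with the length trend removed the values were -0.78 for PFDN5, -0.63 for PFDN4 and -0.64 for VBP1, and the median was -0.42. In that fit 8 of 9 were lower and 6 were called, where 9.33% of genes were called lower. URI1 (-0.40) was among the 6 and PFDN2 (0.06) no longer. In Brangus against Holstein Friesian 8 of 9 genes of this list had higher values in Brangus (median 0.51). In Kedah-Kelantan against Holstein Friesian 8 of 9 had lower values in Kedah-Kelantan (median -0.45). In these comparisons 0 were called by edgeR or DESeq2, with 2 and 0 at an unadjusted p under 0.05 by edgeR. Without Holstein Friesian replicate 1 these medians were 0.98, with 7 of 9 called higher in Brangus where 14.5% of genes were, and 0.0062, with 1 of 9 called lower in Kedah-Kelantan where 10.7% of genes were. Without replicate 2 they were 0.21, with 0 called, and -0.85, with 5 of 9 called lower in Kedah-Kelantan where 5.35% of genes were.

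Of the other partners of CCT, some were called in the fit of Kedah-Kelantan and Brangus alone, in which 10.2% of all genes were called lower and 9.09% higher. With all 6 libraries edgeR called 0 of these partners, with 1 phosducin-like, 1 tubulin cofactor and 3 actin and tubulin genes at an unadjusted p under 0.05. DESeq2 called PDCL3 and TUBB1 lower, where it called 2.74% of all genes lower. Of 3 phosducin-like cofactors, which bind CCT and modulate its folding, PDCL3 was called lower in Kedah-Kelantan (-0.78, SE 0.13). Of 5 tubulin folding cofactors, which take tubulin after CCT, TBCA (-1.16, SE 0.14) and TBCC were called lower. Of 13 actin and tubulin genes, whose proteins CCT folds, TUBA4A (-0.54), TUBB1 (-1.66) and TUBB2B (-3.01) were called lower and none higher, with a median of -0.14. With the length trend removed TUBA4A did not pass (-0.32, edgeR adjusted p = 0.0949), TUBB was called higher (0.39, adjusted p = 0.0263; 0.22 before), where 7.95% of genes were called higher, and the median was 0.05. The calls of PDCL3, TBCA, TBCC, TUBB1 and TUBB2B remained. TUBB1, a tubulin of platelets that is also in the platelet marker list, was 52.2 and 54.1 CPM in Kedah-Kelantan, 170 and 167 CPM in Brangus, and 56.6 and 75.3 CPM in Holstein Friesian. Of 4 chaperonin-like genes outside the complex none was called, and among them CCT6B, the testis relative of CCT6A, was counted 8 and 16 times in the Kedah-Kelantan libraries, 42 and 20 times in Brangus, and 8 and 7 times in Holstein Friesian. CCT8L2, related to CCT8, had at most 2 counts in any library and was not tested.

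Partners of HSP60 and other heat shock genes were followed in the same fit, again beside 10.2% of all genes called lower. Of 15 genes for other mitochondrial chaperones and proteases, 10 had lower values in Kedah-Kelantan than in Brangus (median -0.20), and 1 was called lower. It was DNAJC19, a factor of protein import (-0.91, SE 0.24), and it did not pass with the length trend removed (-0.21). Of 12 genes followed as a sign of mitochondrial content, PHB1, PHB2, SSBP1, TOMM20 and VDAC2 were called lower in the same fit, and TOMM20 alone with the length trend removed. With all 6 libraries edgeR called 0 of these 15 and 0 of these 12 genes, with 1 and 4 at an unadjusted p under 0.05, and DESeq2 called 0 of both. Of 14 heat shock factor targets outside the chaperonins, 13 were lower in Kedah-Kelantan, and AHSA1, FKBP4, HSP90AA1, HSP90AB1, HSPA8 and HSPH1 were called, 6 of 14. With the length trend removed these 6 and HSPA4 (-0.39) were called, where 9.33% of genes were. HSP90AA1, the inducible cytosolic HSP90, was 699 and 706 CPM in Kedah-Kelantan, 1116 and 1050 CPM in Brangus, and 811 and 845 CPM in Holstein Friesian (-0.62, SE 0.10, for Kedah-Kelantan over Brangus). With all 6 libraries edgeR called 0 of these 14 genes in Kedah-Kelantan against Brangus, with 6 at an unadjusted p under 0.05. DESeq2 called AHSA1, HSP90AA1 and HSPA8 lower, where it called 2.74% of all genes lower.

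Proliferation genes went the other way between Kedah-Kelantan and Brangus. Of 15, 13 were higher in Kedah-Kelantan, and in the fit of these breeds alone BIRC5, CENPF, MCM2, MCM4, MKI67 and TOP2A were called higher, where 9.09% of genes were called higher, and TYMS lower. With the length trend removed these 6 and CCNB1 (1.21) were called higher, where 7.95% of genes were, and TYMS did not pass (-0.48). MKI67, a marker of dividing cells, was 120 and 81.1 CPM in Kedah-Kelantan, 26.6 and 35.3 CPM in Brangus, and 52.7 and 72.1 CPM in Holstein Friesian (1.71, SE 0.22, for Kedah-Kelantan over Brangus). With all 6 libraries edgeR called 0 of the 15, with 7 at an unadjusted p under 0.05, as had 1564 of all 13455 genes. DESeq2 called 5 higher, where it called 294 of 13455 genes higher.

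The genes most like HSPD1 across the 6 libraries, among 9102 candidates, were EIF1AX, CAPN7 and LOC790218, each with a Pearson r of 0.996. EIF1AX, a translation initiation factor, was 62.3 and 64.4 CPM in Kedah-Kelantan, 109 and 135 CPM in Brangus, and 95.1 and 60.03 CPM in Holstein Friesian. Those most like the mean of the ring were NCBP2 (0.998), TATDN3 (0.997) and SNRPA1 (0.996). Without Holstein Friesian replicate 2 these 6 correlations were 0.994 to 0.999. The genes had been picked with all 6 libraries, so this is no separate check. NCBP2, a subunit of the nuclear cap-binding complex, was 74.9 and 73.7 CPM in Kedah-Kelantan, 116 and 107 CPM in Brangus, and 99.1 and 55.2 CPM in Holstein Friesian. Such a pattern was common: 612 genes had an r above 0.9 with HSPD1 and 905 with the ring, and all share the same 6 libraries.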

How the data were processed

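Whole-blood RNA of 3 cattle breeds was extracted with PrimeZOL and sequenced, per the labels' protocols. FastQC 0.11.9, Trimmomatic 0.39, HISAT2 2.2.1, featureCounts 2.0.1, DESeq2 1.38.0 and the genome build ARS-UCD1.2 are named in the submitters' processing notes, while for strandedness and the handling of reads that match several places nothing is given in the sources used here. Chaperonin genes can have processed pseudogenes, so the assignment of their reads is uncertain to that extent. The deposited counts are raw whole numbers per gene. The deposited FPKM values equal those counts divided by a gene length and the library total (3104 genes, largest deviation 0.0818%). They were used to order levels, as an alternative unit, and with the counts to derive the gene lengths behind the length trend. Positions are those of the deposited table. For 9 of 10 genes a reference gene table gave the same chromosome.

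Counts were tested with edgeR 4.0.16 in R 4.3.3: filterByExpr, TMM scaling, a robust quasi-likelihood fit with breed as its only term over 6 libraries (3 residual degrees of freedom), F tests, and Benjamini-Hochberg adjustment over 13455 genes, called at an adjusted p under 0.05. The standard error (SE) was taken from the log2 fold change and F. CPM uses the TMM-scaled library size. The labels do not say whether replicates came from separate cows beyond calling them biological, so p-values measure the spread between these libraries. The script was tested on simulated data. Alternatives were other scalings and filters, DESeq2 1.42.0, limma 3.58.1 on log2(FPKM + 1), removal of 13 haemoglobin genes, only the breeds compared, a replicate block, fits without each library, and removal of the gene length trend by loess offsets (span 0.5; 11310 tested genes with a length), the last chosen after seeing the data, as was its use for HSPE1 without each Holstein Friesian library. The gene length trend in these libraries was known from earlier work on them. The genes and lists were chosen with earlier results of these data known. All 10 members are named, as are up to 3 genes per other list with the smallest p for any breed difference and the 3 genes with the highest correlation with HSPD1 and with the ring mean (mean log2 CPM of at least 3). Genes called from a list are also named, which was decided after their values were seen.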

Additional observations from a re-analysis of the deposited data

How the results depend on the processing

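The 30 single-gene values and 7 counts and medians were recomputed under up to 18 alternatives. The count of called genes for Kedah-Kelantan against Brangus was 0 with all 6 libraries, 1 with DESeq2, 6 with only the breeds compared, and 4 with only the breeds compared and the gene length trend removed. Leaving out 1 library at a time gave 0 to 6. It also moved the counts of the other comparisons and of any breed difference, but a breed left with 1 library is assumed to vary like the others. The median of the 8 CCT subunits in Kedah-Kelantan against Brangus was -0.12 with total count scaling and -0.11 with limma on log2(FPKM + 1). Leaving out 1 library gave medians of -0.30 to 0.20 for Kedah-Kelantan against Holstein Friesian and 0.0928 to 0.65 for Brangus against Holstein Friesian. With the replicate block no chaperonin gene was called and the medians were -0.031 for Kedah-Kelantan against Holstein Friesian, 0.38 for Brangus against Holstein Friesian and -0.38 for Kedah-Kelantan against Brangus. The replicate numbers share no stated origin, and same-numbered libraries deviated with correlations of 0.014, 0.054 and -0.0017 in the same comparisons. Signs turned mostly in Kedah-Kelantan against Holstein Friesian, where the values were near 0. There CCT6A was -0.0241 with DESeq2 scaling, -0.0328 without a low-count filter, -0.0326 with a mean count of 50 or more, -0.0242 with the DESeq2 test and -0.0135 with only the breeds compared. CCT8 was -0.0078, -0.0149, -0.016 and -0.0079 under the first 4 of these. Total count scaling gave 0.0345 for HSPD1, 0.11 for TCP1, 0.13 for CCT3, 0.06 for CCT4 and 0.0445 for CCT7. With limma, HSPD1 was 0.0515, TCP1 0.11, CCT3 0.14, CCT4 0.10, CCT5 0.0087 and CCT7 0.10. With the gene length trend removed, HSPE1 was 0.0421, TCP1 0.0016 and CCT3 0.0196. Leaving out 1 library, the values in this comparison ran from -0.31 to 0.0506 for HSPD1, -0.50 to 0.11 for HSPE1, -0.16 to 0.0275 for TCP1, -0.22 to 0.44 for CCT2, -0.22 to 0.15 for CCT3, -0.38 to 0.23 for CCT4, -0.40 to 0.0627 for CCT5, -0.40 to 0.50 for CCT6A, -0.43 to 0.28 for CCT7 and -0.15 to 0.17 for CCT8, and in Brangus against Holstein Friesian from -0.0464 to 0.85 for CCT6A. In Kedah-Kelantan against Brangus, CCT2 and CCT8 were 0.0197 and 0.043 with total count scaling, and 0.0196 and 0.0397 with limma. The cause of these changes was not tested. The SD that counting alone gives to the log2 difference between replicates had a median over the 8 CCT subunits of 0.0314 for Kedah-Kelantan, where the median absolute difference was 0.0425. For Brangus these were 0.0322 and 0.0829, and for Holstein Friesian 0.0333 and 0.49. A median absolute difference and an SD are different measures and cannot be equated. Holstein Friesian replicates differed by more than 2 of these SDs for 8 of the 8 genes, Brangus replicates for 5, and Kedah-Kelantan replicates for 2.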
